A study of Mus musculus with 11 samples.

Results

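The mitochondrial chromosome of the mouse was followed through 11 RNA-seq libraries of sorted B cells. Its genes were chosen by position alone, as every gene annotated on chromosome M with a symbol beginning mt-, which gave 37 of the 48795 genes in the table. These are 13 protein-coding genes, 22 tRNA genes and 2 rRNA genes, each a single exon in the annotation. No measured value took part in the choice.

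The libraries came from spleens of female mice aged 8 to 12 weeks, on day 10 after intravenous immunization with sheep red blood cells (SRBC), which start germinal centers (GCs). Light zone (LZ) GC B cells, sorted as B220+ CD138- IgD- CD38- Fas+ CD86 high CXCR4 low, were taken from 4 Myc_WT mice and from 4 Myc_VD mice. Myc_VD mice carry Myc V394D at the endogenous Myc locus, a form of MYC that does not bind its partner MIZ1. Memory B cells (MBCs), sorted as B220+ CD138- IgD- CD38+ CD273+, were taken from Myc_WT mice 1, 3 and 4, the same animals as LZ libraries 1, 3 and 4. Each library was 1 mouse, and both comparisons below used the same 4 Myc_WT LZ libraries as reference. The Myc_VD mice share an ID prefix that no Myc_WT mouse has, so the prefix and the genotype cannot be told apart. Myc_WT mice 1 to 3 share another prefix, and mouse 4 has its own.

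Mitochondria keep a small circular genome. It codes for core subunits of 4 complexes of oxidative phosphorylation, namely complex I (mt-Nd genes), complex III (mt-Cytb), complex IV (mt-Co genes) and the ATP synthase, complex V (mt-Atp genes), and for the rRNAs and tRNAs that translate them. Both strands are transcribed as long precursors that are cut at the tRNAs, and every other protein of the organelle is imported from the cytosol. B cells are known to remodel their mitochondria during the GC reaction.

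All values are TPM, in which the authors' estimate of reads per gene is divided by gene length and scaled to a total of 1000000 per library. TPM hold no read depth. A share of TPM cannot tell more mitochondrial RNA per cell from less of the other RNA, nor a change within cells from a change in which cells were sorted.

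Some of the sequences limit what a single value means. mt-Nd4l and mt-Nd4 share 7 bases, and mt-Atp8 and mt-Atp6 share 43 bases, so a read inside the shared stretch belongs to both. They are shown with 30 bases on each side and the shared bases in capitals, on the plus strand of GRCm38, at chrM:10137-10203 and chrM:7897-7999 (GENCODE M21 transcripts):
mt-Nd4l and mt-Nd4: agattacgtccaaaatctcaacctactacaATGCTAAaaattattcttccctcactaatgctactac
mt-Atp8 and mt-Atp6: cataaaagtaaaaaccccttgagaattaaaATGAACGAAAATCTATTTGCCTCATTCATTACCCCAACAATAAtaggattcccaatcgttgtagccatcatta

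A second limit came from the nucleus. Chromosome 1 of GRCm38 holds a stretch of mitochondrial DNA on its minus strand, annotated as unprocessed pseudogenes between bases 24611535 and 24616197. There 7 of the 13 mRNAs had a copy of at least 99% identity over at least 200 bases. Copies of mt-Atp6 (Gm10925), mt-Co2 (Gm28661), mt-Co3 (Gm28437), mt-Nd4l (Gm10222) and bases 1 to 876 of mt-Nd4 (Gm28439) had 0 mismatches. The copies of mt-Nd3 (Gm28438) and of bases 1063 to 1545 of mt-Co1 (Gm29216) had 1 mismatch each, T3C and A1066T, counted from the first base of the mitochondrial gene and with its base named first. The base that differs is in capitals in the windows around both sites:
mt-Nd3: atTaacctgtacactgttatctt
Gm28438: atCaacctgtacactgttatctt
mt-Co1: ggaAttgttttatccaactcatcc
Gm29216: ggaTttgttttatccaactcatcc

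For 5 of these pairs the copy spans nearly the whole mRNA, and the estimate has almost no base by which to place a read. For mt-Co1 and mt-Nd4 this holds only in the stretches given, 483 of 1545 and 876 of 1378 bases. There, reads of the mitochondrial RNA and of the copy cannot be told apart, and the TPM of all 7 genes and their copies are therefore uncertain. They are given separately and summed below.

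Most marker genes followed the labels of the sorted cells. Summed TPM of 6 GC markers lay at 526 to 712 in Myc_WT LZ, 368 to 585 in Myc_VD LZ and 97.2 to 162 in MBCs, and those of 6 MBC markers at 32.8 to 37.3, 15.9 to 32.9 and 387 to 547. The latter sum was led by Cd38 and Ccr6. Nt5e (10.8 to 13.4 TPM in Myc_WT LZ, 6.80 to 11.5 in MBCs) and Zbtb32 (0.70 to 2.10 and 0, 0.50 and 6.56) did not separate MBCs from LZ, and the sum of 4 LZ markers overlapped between the groups, at 447 to 733, 375 to 477 and 361 to 562. A single-residue substitution leaves no trace in TPM, so the genotype labels could not be checked. rRNA genes, mitochondrial and nuclear, took 35.7% to 44.5% of all TPM in Myc_WT LZ, 44.1% to 61.3% in Myc_VD LZ and 36.1% to 37.5% in MBCs, which leaves less of the fixed total for every other gene in Myc_VD. Levels are therefore given both as deposited and with all 356 rRNA genes removed and the rest rescaled (TPM without rRNA). Between 15460 and 19537 genes were above 0 in Myc_WT LZ, 13169 to 16421 in Myc_VD LZ and 11527 to 16040 in MBCs.

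Mitochondrial mRNAs made up a larger share of the mRNA of Myc_VD LZ B cells and of MBCs than of Myc_WT LZ B cells. The 13 mRNAs summed to 2.90%, 1.80%, 1.65% and 3.18% of TPM without rRNA in Myc_WT LZ libraries 1 to 4. They summed to 3.49%, 4.67%, 4.53% and 6.07% in Myc_VD LZ libraries 5 to 8. In MBC libraries 1, 3 and 4 the sum was 5.37%, 6.12% and 3.73%. Every Myc_VD and every MBC library stood above every Myc_WT LZ library. Group means were 2.38% ± 0.77 (SD, n = 4), 4.69% ± 1.06 (n = 4) and 5.07% ± 1.22 (n = 3), a ratio of 1.97 for Myc_VD and 2.13 for MBCs over Myc_WT LZ. As a sum over chosen genes it is given with no test. Of all TPM, rRNA included, the shares were 1.06% to 1.76%, 1.95% to 2.35% and 2.39% to 3.82%, and the groups again did not overlap. mt-Co1 was 3rd to 9th among all genes without rRNA in Myc_WT LZ, 3rd in all 4 Myc_VD libraries and 2nd to 4th in MBCs. Among the 20 highest genes of a library, 1 or 2 were mitochondrial mRNAs in Myc_WT LZ, 4 to 6 in Myc_VD LZ and 2 to 5 in MBCs.

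**Figure D1:**
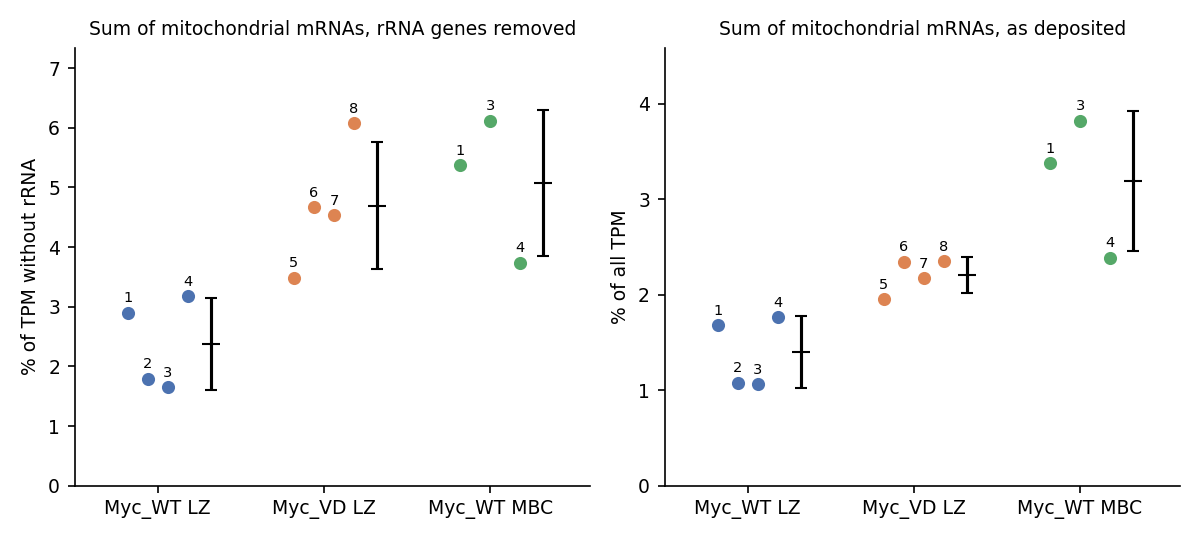
Sum of the 13 mitochondrial mRNAs in each library, as % of TPM without rRNA (left) and % of all TPM (right). Each point is 1 library labelled with its mouse number, and the bar beside each group is the mean ± SD; Myc_WT LZ lies at 1.65% to 3.18% on the left, below all Myc_VD (3.49% to 6.07%) and MBC libraries (3.73% to 6.12%).

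In Myc_WT LZ and in MBCs most of the 13 mRNAs were high or low in the same libraries. Myc_WT LZ libraries 1 and 4 both stood above libraries 2 and 3 for 12 of the 13 mRNAs, mt-Nd3 being the exception. Among MBCs, library 4 was the lowest for 10 of 13. In Myc_VD LZ there was no such library as deposited, with library 8 the highest for 5, library 6 for 4, library 7 for 3 and library 5 for 1. Library 5 was the lowest for 6. On TPM without rRNA there was a pattern, with library 8 the highest for 10 of 13 and library 5 the lowest for 11.

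In Myc_VD against Myc_WT LZ B cells, no mitochondrial mRNA passed the test across all genes. limma on log2(TPM + 1) with Benjamini-Hochberg adjustment over 12869 genes called 0 of 13, against 1 gene higher (0.00777%) and 5 lower (0.0389%) of all tested. Without adjustment, 9 of 13 had a p under 0.05, all of them with higher means in Myc_VD, against 1.24% of all genes higher. All 13 differences were above 0, with a median of 0.68 (range 0.31 to 1.17), while the median of all genes tested was -0.31. For 5 of 13 every Myc_VD library lay above every Myc_WT library, against 0.816% of all genes. The count at an unadjusted p under 0.05 depended on single libraries. It was 4 without Myc_WT LZ library 2 (120 of 12803 genes higher) and 10 without Myc_WT LZ library 4 (112 of 12845). It lay between these without any other library. On TPM without rRNA the median of all 14340 genes moved to -0.05, since the removal raises every other gene of a library by the same factor. The mitochondrial median was then 0.99, with 13 of 13 at an unadjusted p under 0.05 (4.55% of all genes were, in the same direction), 5 of 13 not overlapping (2.85% of all genes), and still 0 called, as for all genes higher (0%).

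In MBCs against Myc_WT LZ B cells, 7 of 13 mitochondrial mRNAs rose by the same test over 13245 genes, against 4.17% of all genes. These were mt-Nd1, mt-Nd4l, mt-Nd4, mt-Nd5, mt-Co1, mt-Cytb and mt-Atp8. At an unadjusted p under 0.05, 11 of 13 were higher (all genes 11.3%), and for 9 of 13 the MBC libraries all lay above the LZ libraries (all genes 11.8%). The median difference was 0.93 (range -0.48 to 1.99), that of all genes -0.14. On TPM without rRNA 4 were called, mt-Nd1, mt-Co1, mt-Nd4 and mt-Nd5 (all genes higher 3.47%), with 10 at an unadjusted p under 0.05 (9.62%) and 7 not overlapping upward (10.1%). The calls rested on few libraries. With the mouse as a block, since 3 animals gave both libraries, 0 of 13 were called (all genes 0.989%). In that fit 10 were at an unadjusted p under 0.05 (6.86%), with a median of 0.80. It also left out LZ library 2, whose mouse gave no MBC library. Leaving out that library with no block gave the same median and 0 calls, so the lost calls cannot be laid to the block. The count was 3 without LZ library 1 (all genes 1.79%), 0 without LZ library 2 (1.56%) or library 3 (1.8%) and 8 without LZ library 4 (1.92%). It was 1 without MBC library 1 (4.35%), 2 without MBC library 3 (6.78%) and 8 without MBC library 4 (7.06%). Within the mice whose ID begins BRAC861.2, which gave LZ libraries 1 to 3 and MBC libraries 1 and 3, 10 of 13 were called (3.3%). In each of these fits 12 of 13 differences stayed above 0.

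**Figure D2:**
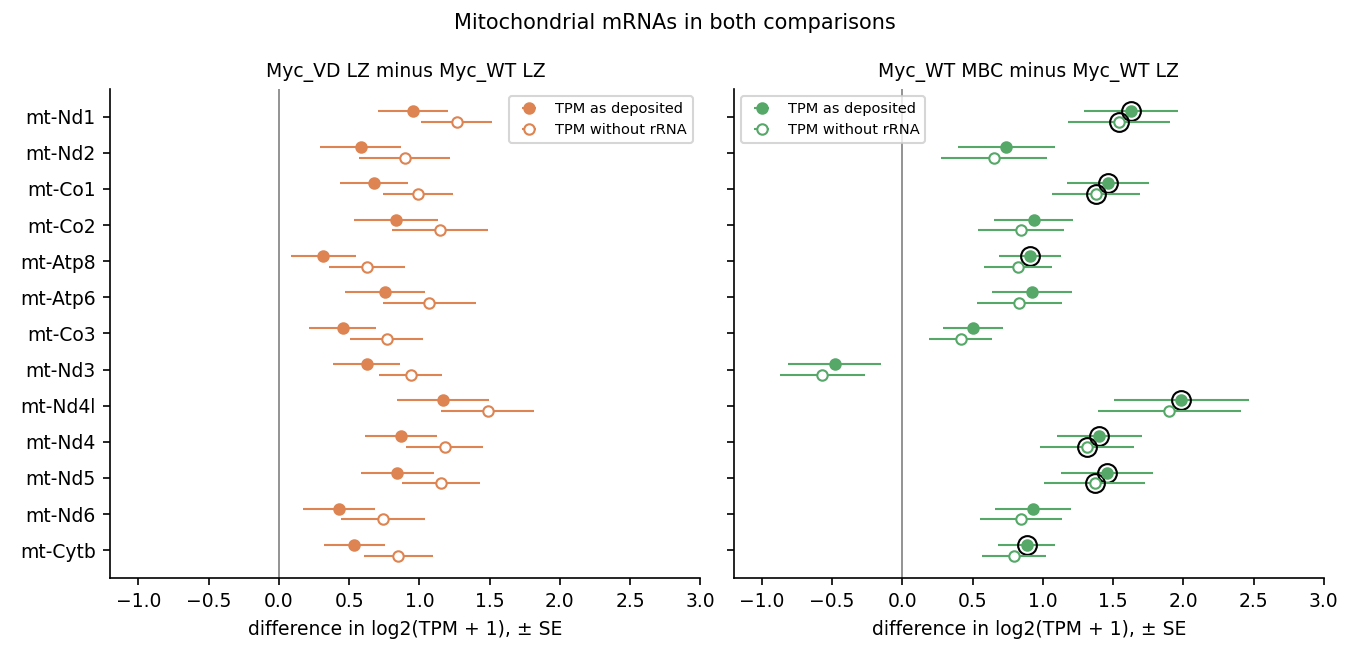
Difference in log2(TPM + 1) with its SE for each of the 13 mitochondrial mRNAs, Myc_VD LZ minus Myc_WT LZ (left) and MBC minus LZ of Myc_WT (right), from TPM as deposited (filled) and TPM without rRNA (open). Black rings mark an adjusted p under 0.05: there are none on the left, and on the right 7 filled and 4 open symbols, with mt-Nd3 alone below 0 in MBCs.

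Complex I, the NADH dehydrogenase that feeds electrons into the chain, is coded by 7 of the mRNAs. mt-Nd1 lay at 1391, 726, 688 and 1186 TPM in Myc_WT LZ, at 1859, 2170, 1734 and 1652 TPM in Myc_VD LZ and at 3504, 3917 and 1874 TPM in MBCs. All 7 libraries of the other two groups exceeded the highest Myc_WT LZ library. The log2 difference was 0.95 ± 0.25 (SE) in Myc_VD (adjusted p = 0.124, limma) and 1.63 ± 0.34 in MBCs (adjusted p = 0.0217), and the exact two-sided permutation test of mean TPM gave p = 0.0286 in both, the smallest it can give with these group sizes. That test, not adjusted, gave this p for 5 of the 13 mRNAs in Myc_VD and for 8 in MBCs, and from 0.0571 to 0.257 and to 0.486 for the others. The 5 in Myc_VD are the mRNAs whose libraries did not overlap, so that count repeats the earlier one. The test was run for the mitochondrial genes only, so no share over all genes can be set beside these counts. In MBCs it takes LZ and MBC libraries of the same mice as independent.

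mt-Nd4 lay at 1536, 775, 767 and 1442 TPM in Myc_WT LZ, at 1975, 1896, 1949 and 2007 TPM in Myc_VD LZ and at 3003, 3459 and 2188 TPM in MBCs. As deposited the 4 Myc_VD values were close together and all above Myc_WT. Without rRNA they ran from 3532 to 5188, still above Myc_WT LZ (1193 to 2654). Its log2 differences were 0.87 ± 0.25 (adjusted p = 0.148) and 1.40 ± 0.30 (adjusted p = 0.0260). mt-Nd5, the longest of the mRNAs at 1824 bases, was at 832, 432, 421 and 862 TPM in Myc_WT LZ, 1139, 1103, 994 and 1083 TPM in Myc_VD LZ and 1866, 2039 and 1180 TPM in MBCs. It showed the same order of groups, with differences of 0.84 ± 0.26 (adjusted p = 0.156) and 1.45 ± 0.33 (adjusted p = 0.0295).

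mt-Nd4l, which shares its last bases with mt-Nd4, had the largest difference of the 13 in both comparisons as deposited. Its levels were 412, 227, 126 and 282 TPM in Myc_WT LZ, 494, 739, 582 and 406 TPM in Myc_VD LZ and 935, 1793 and 518 TPM in MBCs. Myc_VD library 8 fell just below Myc_WT library 1, so those groups overlapped, while MBCs lay above. Without rRNA they did not overlap, at 195 to 711 in Myc_WT LZ and 883 to 1472 in Myc_VD LZ. The differences were 1.17 ± 0.33 (adjusted p = 0.135) and 1.99 ± 0.48 (adjusted p = 0.0358). With its nuclear copy added, the difference was 0.81 in Myc_VD, below those of mt-Nd1, mt-Nd5, mt-Co1 and mt-Nd4, and 1.82 in MBCs, still the largest.

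mt-Nd3 had the only difference below 0 in MBCs. It was at 210, 235, 395 and 207 TPM in Myc_WT LZ, 314, 426, 448 and 383 TPM in Myc_VD LZ and 224, 114 and 229 TPM in MBCs. As deposited the MBC and LZ values overlapped, and the difference was -0.48 ± 0.33 (adjusted p = 0.387). It was -0.16 without MBC library 3 and -0.27 without LZ library 3. In Myc_VD the difference was 0.62 ± 0.24 (adjusted p = 0.223). On TPM without rRNA all 3 MBC libraries lay below all 4 LZ libraries, as 17.2% of all genes did, at 183 to 358 against 363 to 615, with a difference of -0.57 ± 0.30 (adjusted p = 0.264). mt-Nd2 and mt-Nd6, the only mRNA read from the light strand, did not pass in either comparison. Their differences were 0.58 ± 0.29 and 0.43 ± 0.25 in Myc_VD and 0.74 ± 0.35 and 0.93 ± 0.27 in MBCs. mt-Nd6 overlaps the end of mt-Nd5 on the opposite strand, and the authors' counting used strand.

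Complex III has a single mitochondrial subunit, cytochrome b. mt-Cytb lay at 2790, 2110, 2044 and 3246 TPM in Myc_WT LZ, 3261, 3557, 3370 and 4428 TPM in Myc_VD LZ and 4840, 5150 and 3943 TPM in MBCs. Myc_VD library 5 exceeded Myc_WT library 4 narrowly, and without rRNA those 2 libraries changed places. The differences were 0.54 ± 0.22 (adjusted p = 0.242) and 0.88 ± 0.21 (adjusted p = 0.0322).

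Complex IV, cytochrome c oxidase, passes electrons to oxygen. mt-Co1, its catalytic subunit, had the highest level of the 13 in all 11 libraries, followed in all 11 by mt-Cytb. It lay at 5489, 3111, 2870 and 4559 TPM in Myc_WT LZ, 5959, 7071, 5672 and 6145 TPM in Myc_VD LZ and 12705, 13121 and 7298 TPM in MBCs. As deposited the 3 groups did not overlap. Without rRNA, Myc_VD LZ (10658 to 15884) and MBCs (11426 to 21008) overlapped, both above Myc_WT LZ (4463 to 9483), and they overlapped as well with the copy added. The differences were 0.68 ± 0.24 (adjusted p = 0.201) and 1.47 ± 0.29 (adjusted p = 0.0189), the latter the smallest adjusted p of the mitochondrial genes. mt-Co2 and mt-Co3 passed in neither comparison, at 0.83 ± 0.30 and 0.45 ± 0.24 in Myc_VD and 0.93 ± 0.28 and 0.50 ± 0.21 in MBCs, and their MBC and LZ values overlapped.

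Of the ATP synthase, mt-Atp8 lay at 721, 586, 476 and 840 TPM in Myc_WT LZ, 858, 675, 661 and 1057 TPM in Myc_VD LZ and 1097, 1292 and 1235.7 TPM in MBCs. It had the smallest difference of the 13 in Myc_VD as deposited, 0.31 ± 0.23 (adjusted p = 0.517), with overlapping groups, and rose in MBCs by 0.91 ± 0.22 (adjusted p = 0.0358). The rank did not hold in every fit. In Myc_VD with copies added, mt-Co3 was at 0.3075 against 0.3149, and without Myc_VD library 7 mt-Co3 had the smallest difference, 0.24. mt-Atp6 did not pass, at 0.76 ± 0.28 in Myc_VD (adjusted p = 0.223) and 0.92 ± 0.29 in MBCs (adjusted p = 0.0773).

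In Myc_WT LZ cells the mean levels were highest for mt-Co1 (4007 TPM) and mt-Cytb (2548 TPM). Next came mt-Nd4 (1130), mt-Co2 (1110), mt-Atp6 (1014) and mt-Nd1 (998), then mt-Atp8 (656), mt-Nd5 (637) and mt-Co3 (595). The lowest were mt-Nd6 (399), mt-Nd2 (337), mt-Nd3 (262) and mt-Nd4l (262 TPM). Differences between genes, which share the libraries, were not tested. mt-Nd4 exceeded mt-Nd1 in each library, but mt-Co2 lay below mt-Nd4 in library 1 (972 against 1536 TPM) and above it in library 4 (1801 against 1442 TPM). The order rests on how reads were divided between genes and copies. With the copies summed, the means were 1850 TPM for mt-Atp6, 1472 for mt-Co2, 1177 for mt-Co3, 467 for mt-Nd4l and 366 for mt-Nd3, so that mt-Atp6 came after mt-Cytb and mt-Co3 stood level with mt-Nd4 (1175).

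As shares of the 13-mRNA sum, copies not included, complex I genes held 27.0% to 30.4% of the pool in Myc_WT LZ, 28.6% to 33.8% in Myc_VD LZ and 29.6% to 33.0% in MBCs, and complex IV genes 40.1% to 42.0%, 39.0% to 42.5% and 41.1% to 45.9%. In Myc_VD no mRNA had a share above, or below, the whole Myc_WT LZ range in all 4 libraries; mt-Atp6 lay below it in library 5 (4.95% against 6.71% to 8.21%) and above it in libraries 6 to 8 (8.2145% to 9.14%). In MBCs 3 mRNAs lay below the range in all libraries. mt-Nd3 held 1.25%, 2.18%, 3.72% and 1.17% of the pool in LZ and 0.664%, 0.2996% and 0.958% in MBCs. mt-Co3 held 3.46% to 5.09% in LZ and 2.20% to 3.01% in MBCs. mt-Cytb held 16.6% to 19.6% in LZ and 13.5% to 16.5% in MBCs, with a log2 difference of 0.88 against 1.47 for mt-Co1 and 1.63 for mt-Nd1. Its share in MBC library 4 (16.53%) was only just below that in LZ library 1 (16.64%). With the copies left out of the sum, so small a gap is uncertain. The shares add up to a fixed total and are given without a test.

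**Figure D3:**
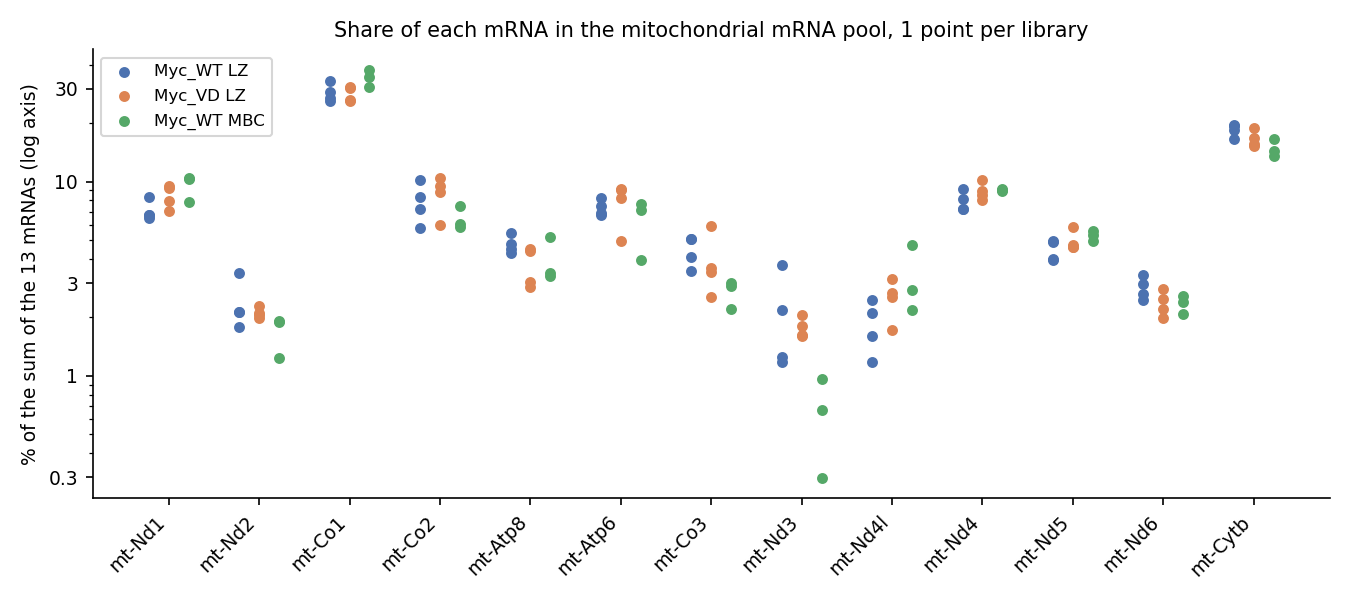
Share of each of the 13 mRNAs in the mitochondrial mRNA sum of a library (log axis, %), 1 point per library, coloured by group. mt-Co1 (25.8% to 37.7%) and mt-Cytb (13.5% to 19.6%) lead in every library, and the 3 MBC points of mt-Nd3 (0.2996% to 0.958%) lie below its 4 Myc_WT LZ points (1.17% to 3.72%).

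The 2 rRNA genes code for the RNAs of the mitochondrial ribosome, 12S (mt-Rnr1, 955 bases) and 16S (mt-Rnr2, 1582 bases). Together they took 18.7% to 24.6% of all TPM in Myc_WT LZ, 23.5% to 34.8% in Myc_VD LZ and 26.9% to 29.8% in MBCs. Nuclear rRNA genes took 17.0% to 21.3%, 20.6% to 26.5% and, in MBCs, only 7.32%, 7.82% and 9.23%. Whether rRNA was removed before sequencing is not given in the sources used here, and the effect of such a step on these levels was not tested.

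mt-Rnr1 was at 43897, 45864, 41948 and 53926 TPM in Myc_WT LZ, 49444, 58714, 58972 and 78092 TPM in Myc_VD LZ and 103839, 94104 and 60113 TPM in MBCs. MBC libraries 1 and 3 stood above all LZ libraries of both genotypes, and MBC library 4 above those of Myc_WT only. It rose in MBCs by 0.86 ± 0.21 (adjusted p = 0.0346, limma), but the call was lost in 11 of 18 other fits. Among these were the mouse as a block (adjusted p = 0.196) and each fit without 1 LZ library. Over the 18 fits the adjusted p ran from 0.0037 to 0.46. In Myc_VD mt-Rnr1 did not pass (0.39 ± 0.26, adjusted p = 0.472). mt-Rnr2 passed in neither, at 0.33 ± 0.30 in Myc_VD (adjusted p = 0.597) and 0.28 ± 0.14 in MBCs (adjusted p = 0.229).

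The ratio of the 2 rRNAs parted the MBC libraries. mt-Rnr2 exceeded mt-Rnr1 3.45- to 3.73-fold in Myc_WT LZ and 3.26- to 3.74-fold in Myc_VD LZ. In MBCs the ratio was 1.87, 2.16 and 3.48, so that library 4 was like the LZ libraries and libraries 1 and 3 were not. MBC library 4 is also the only one from mouse 4, whose ID prefix differs. It had the highest myeloid (171 TPM) and T cell (38.6 TPM) marker sums of the MBCs. The part of either in the ratio was not tested. Both rRNAs come from the same precursor. The ratio of mitochondrial rRNA to mitochondrial mRNA was 12.4 to 19.7 in Myc_WT LZ, 10.7 to 14.8 in Myc_VD LZ and 7.78 to 11.3 in MBCs.

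**Figure D4:**
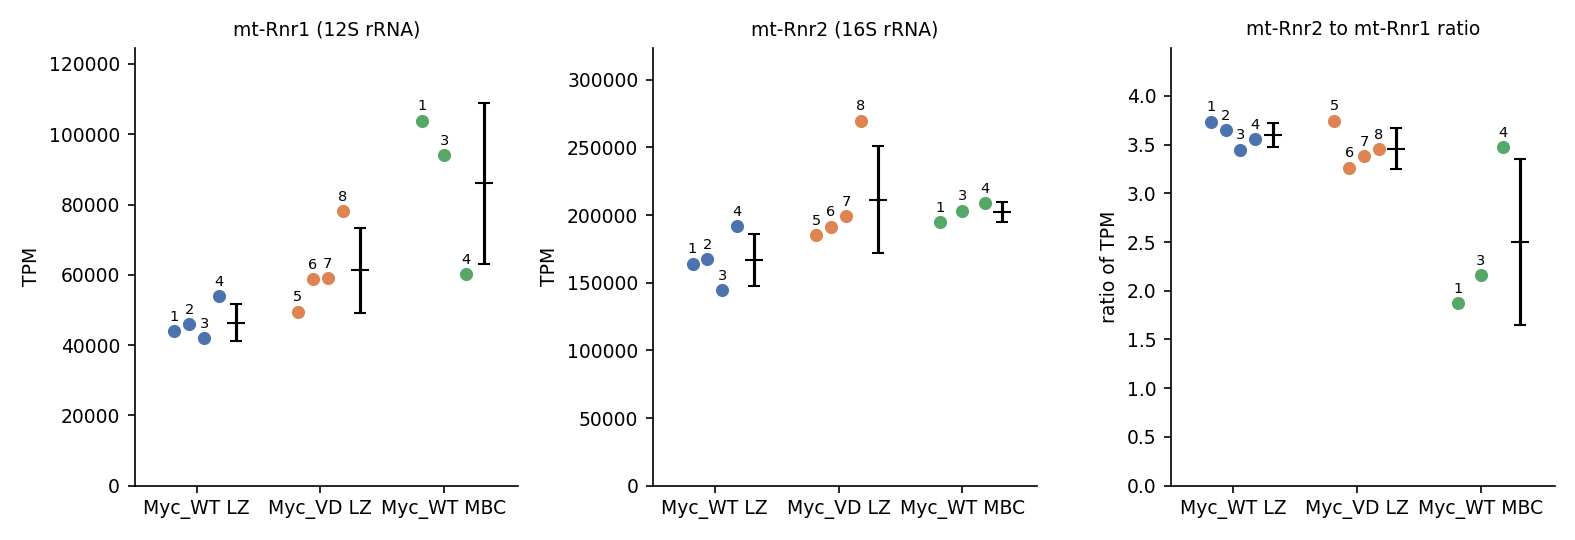
mt-Rnr1 and mt-Rnr2 in TPM, and the ratio of mt-Rnr2 to mt-Rnr1, in each library (points, with the mouse number), with the mean ± SD of each group. The ratio is 3.26 to 3.74 in all 8 LZ libraries and in MBC library 4 (3.48), and 1.87 and 2.16 in MBC libraries 1 and 3.

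The 22 tRNA genes were listed at 0 TPM in all 11 libraries. They are 59 to 75 bases long, 14 on the plus and 8 on the minus strand, and lie between the genes described above. None of the 3789 genes of the whole table with a transcript of at most 110 bases, tRNA genes included, was above 0 in any library, and the shortest gene above 0 had 116 bases. The zeros of the tRNA genes are therefore shared with every gene of their length, and no tRNA level can be read from them. The shortest (mt-Ts2, a serine tRNA, chrM:11613-11671) and one of the longest (mt-Tl1, a leucine tRNA, chrM:2676-2750), both on the plus strand of GRCm38, are shown to give the scale of these genes:
mt-Ts2: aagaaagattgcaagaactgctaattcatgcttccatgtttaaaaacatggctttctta
mt-Tl1: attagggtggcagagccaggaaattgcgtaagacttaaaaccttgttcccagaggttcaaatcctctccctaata

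The TPM listed under the nuclear copies of 7 mRNAs varied from library to library. Transcripts of the copies and mitochondrial reads placed there cannot be told apart. Gm10925 held 26.0% to 59.6% of the TPM sum of itself and mt-Atp6 over the 11 libraries, although both hold the same 678 bases. Gm28437 held 20.5% to 55.3% with mt-Co3 and Gm10222 20.04% to 59.2% with mt-Nd4l. Their medians were 42.8%, 46.2% and 29.1%, and that of the mt-Nd3 copy was 31.4% (8.99% to 54.9%). The copies of mt-Co2 (8.53% to 35.1%), mt-Co1 (4.43% to 27.4%) and mt-Nd4 (0.331% to 9.64%) had lower medians, at 20.2%, 8.46% and 1.87%. None of the 7 copies passed the test in either comparison. Gm29216, the copy of the last part of mt-Co1, lay at 865, 230, 237 and 421 TPM in Myc_WT LZ and 639, 2670, 1433 and 1234 TPM in Myc_VD LZ, which overlapped (difference 1.81 ± 0.47, adjusted p = 0.124).

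With the TPM of each copy added to its gene, 8 of 13 mRNAs were called higher in MBCs (4.18% of all genes were), mt-Atp6 in addition to the 7, and 0 in Myc_VD. The sum of genes and copies was 1.96% to 3.77% of TPM without rRNA in Myc_WT LZ, 4.06% to 7.25% in Myc_VD LZ and 4.21% to 6.75% in MBCs, and again did not overlap with Myc_WT LZ. mt-Nd3 and Gm28438 together lay at 310 to 435 TPM in Myc_WT LZ and at 332, 254 and 268 TPM in MBCs.

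**Figure D5:**
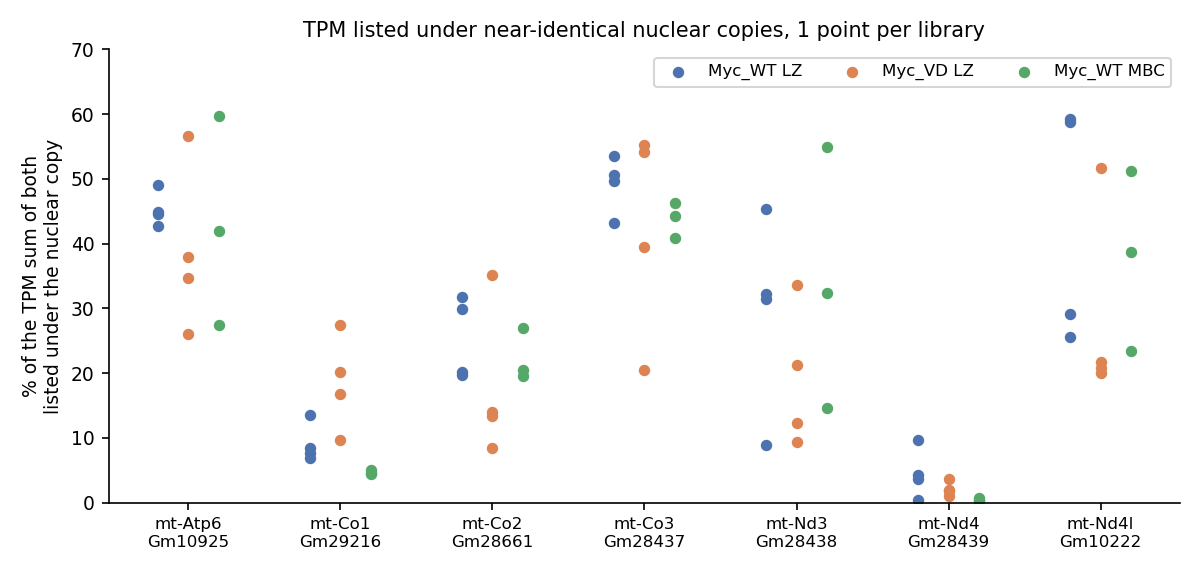
Percent of the TPM sum of a mitochondrial gene and its near-identical nuclear copy that is listed under the copy, 1 point per library, coloured by group. The percentages spread widely within groups, for example from 20.04% to 51.6% for mt-Nd4l and Gm10222 in Myc_VD LZ.

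A list of 66 nuclear genes was made around those that copy, transcribe, process and degrade the mitochondrial genome and its RNA. It also holds Taco1, a translation activator, and regulators of nuclear genes, among them Nrf1, Gabpa, Gabpb1, Esrra, Ppargc1a, Ppargc1b, Pprc1 and Yy1. None of the listed genes, called machinery genes below, was called higher in either comparison. In Myc_VD only 0.00777% of all genes were. Of the 66 listed genes, 65 were tested in Myc_VD, where 0 passed. Without adjustment 11 had a p under 0.05 and a lower mean (15.7% of all genes did) and 0 a higher one (1.24%), and 10 were above and 55 below 0, with a median of -0.33. Without rRNA the split was 29 above and 36 below, the median -0.04, and 4 were lower at an unadjusted p under 0.05 (all genes 6.56%). In MBCs, of 64 tested, 1 fell (5.04% of all genes did) and 0 rose (4.17%), 9 were lower at an unadjusted p under 0.05 (15.8%) and 0 higher (11.3%), with 19 above and 45 below 0 and a median of -0.50.

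The gene that fell was Rnaseh1, which removes RNA from RNA-DNA hybrids in nucleus and mitochondria. It was at 13.7, 14.4, 9.47 and 6.30 TPM in Myc_WT LZ and at 0, 0.12 and 3.05 TPM in MBCs (difference -2.79 ± 0.63, adjusted p = 0.0300). It was not called with the mouse as a block (-2.65, adjusted p = 0.197), nor without any 1 of the 4 LZ libraries (adjusted p = 0.0668 to 0.111) or without MBC library 1 (adjusted p = 0.0553). In Myc_VD LZ it lay at 1.51, 2.83, 1.12 and 2.18 TPM, below every Myc_WT library, and did not pass (-2.01 ± 0.38, adjusted p = 0.0779). Leaving out Myc_VD library 5 called it there, with Ssbp1, the single-strand binding protein of mitochondrial DNA, and Trmt61b, a tRNA methyltransferase, both also lower, 3 of 65 against 1.88% of all genes. Leaving out MBC library 4 called 9 of 64 machinery genes lower in MBCs, Polrmt and Slirp among them, a share like that of all genes (14%). These genes were named after their values were seen.

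Genes of mitochondrial transcription were low and varied widely. Polrmt, the mitochondrial RNA polymerase, lay at 6.78 to 24.1 TPM in Myc_WT LZ, 3 to 24.6 in Myc_VD LZ and 0.14 to 9.65 in MBCs. Tfam, which packages mitochondrial DNA and helps start transcription, lay at 21.1 to 49.6, 20.8 to 59.4 and 5.38 to 31.5 TPM. Tfb2m, the initiation factor, lay at 24.8 to 40.4, 12.99 to 34.6 and 28.8 to 208 TPM, and Tefm, the elongation factor, at 5.56 to 11.4, 0.59 to 29.9 and 0.42 to 12.3 TPM. For all 4 genes Myc_VD and Myc_WT LZ overlapped, and none was called in either comparison.

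Polg, the DNA polymerase of mitochondria, lay at 26.8 to 35.7 TPM in Myc_WT LZ, 20.7 to 41.6 in Myc_VD LZ and 32.2 to 50.6 in MBCs, and Twnk, the helicase, at 1.55 to 2.47, 0.10 to 2.57 and 0.35 to 4.93 TPM. Lrpprc and Slirp form the complex that stabilizes mitochondrial mRNAs. Lrpprc lay at 32.4 to 42.4, 17.9 to 33.7 and 42.1 to 63.0 TPM, and Slirp at 21.8 to 35.9, 15.7 to 59.9 and 0.30 to 12.6 TPM. The differences in MBCs were 0.44 ± 0.28 for Lrpprc (adjusted p = 0.352) and -2.42 ± 0.77 for Slirp (adjusted p = 0.0832), and in Myc_VD -0.61 ± 0.25 (adjusted p = 0.252) and 0.06 ± 0.36 (adjusted p = 0.950). Pnpt1 and Supv3l1, which degrade mitochondrial RNA, Elac2, which trims tRNA ends, and Tbrg4, an RNA-binding protein that acts on mitochondrial mRNAs, were called in neither comparison, with overlapping groups in Myc_VD.

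Signs of other cells varied from library to library, and only the myeloid sum set a whole group, MBCs, apart from Myc_WT LZ. Summed over 7 erythroid markers, TPM were 116 to 226 in Myc_WT LZ, 343, 410, 352 and 71.9 in Myc_VD LZ libraries 5 to 8, and 7.60, 6713 and 53.4 in MBC libraries 1, 3 and 4, with Klf1 under 1 TPM everywhere. The sum of 8 myeloid markers was 0.82 to 9.18, 0 to 12.6 and 17.0 to 171 TPM, led in MBC library 4 by Lyz2 (136 TPM), and that of 8 T cell markers at most 38.6 TPM. Myc_VD libraries 5 to 7 thus lay above every Myc_WT LZ library in erythroid transcripts and library 8 below, while library 8 had the highest mitochondrial mRNA share of Myc_VD, 6.07%. MBC library 1, with the fewest erythroid transcripts, had 5.37% mitochondrial mRNA, and MBC library 3, with the most, 6.12%. Without library 3 the median difference of the 13 mRNAs in MBCs was 0.86 with 2 called (6.78% of all genes higher). The part of other cells in these results was not tested beyond these values.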

How the data were processed

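RNA of LZ B cells (4 Myc_WT and 4 Myc_VD mice) and of MBCs (3 of the Myc_WT mice) was measured in 1 library per mouse and cell type. The authors aligned the reads with STAR (2.5.2a), quantified Ensembl genes of GRCm38 with RSEM (1.3.0) and its strand-specific setting, and deposited TPM with 2 decimals in 1 table. TPM hold no depth, so precision rests on the spread between mice, and p-values measure that spread alone. The annotation release is not given in the sources used here. All 11 columns were used.

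Groups came from the labels. Symbols, biotypes, lengths and sequences came from GENCODE M21 (GRCm38). Genes whose mean over the libraries of 2 groups reached 1 TPM were compared between them as log2(TPM + 1) by limma 3.58.1 under R 4.3.3, with lmFit and trended eBayes. Tests were two-sided, and p was adjusted over all genes (Benjamini-Hochberg, 0.05); differences on this scale understate those of low genes. Exact permutation tests of mean TPM ran over 70 regroupings for Myc_VD and 35 for MBCs. The fit was tested on simulated data. Copies were found with blastn 2.17.0, plus strand, and the limits of 99% and 200 bases were set after the alignments were seen.

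All mt- protein-coding and rRNA genes, the near-identical copies with a mean of at least 1 TPM and 12 machinery genes were named by rule, with machinery genes past the adjusted threshold; the rule for tRNA genes named none, since all were at 0. The members and lists were chosen with earlier results of these data known. Per the labels, mice 1, 3 and 4 each gave 1 LZ and 1 MBC library. Across genes, the deviation of each such pair from its group means had an r of 0.00471, 0.00169 and -0.0350. Since the animals were shared, the mouse was also fitted as a block. Alternatives were other scalings, pseudocounts, filters and fits, each library left out, and the copies added.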

Additional observations from a re-analysis of the deposited data

Results flagged for a closer look

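In 8 of 154 quantities tested in the 2 groups of 4 libraries, 1 library lay far from the other 3 by Dixon's test. That is 5.19%, and chance alone gives about 1 in 20.

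mt-Nd3 was at 395 TPM in Myc_WT LZ library 3, against 207 to 235 TPM in the others, and its nuclear copy was lowest in that library. mt-Nd1 held 8.29% of the mitochondrial mRNA sum in Myc_WT LZ library 1, against 6.48% to 6.73%. mt-Nd5 held 5.84% of that sum in Myc_VD LZ library 5, against 4.58% to 4.70%. mt-Rnr2 stood at 269696 TPM in Myc_VD LZ library 8, against 185148 to 199196 TPM, in the library with the highest rRNA share. Gm10222 held 51.6% of the sum with mt-Nd4l in Myc_VD LZ library 8, against 20.04% to 21.7%. Of the machinery genes, Tfb2m was at 40.4 TPM in Myc_WT LZ library 1 (24.8 to 27.5 TPM in the others), and Tfam and Tefm were at 59.4 and 29.9 TPM in Myc_VD LZ library 6 (20.8 to 25.9 and 0.59 to 3.86 TPM). The cause of these gaps was not tested.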

How the results depend on the processing

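The mitochondrial mRNA share kept its direction under every denominator, with copies added, with medians and without each library, at log2 ratios of 0.83 to 1.15 in Myc_VD and 0.93 to 1.27 in MBCs when libraries were left out. All 13 mRNAs stayed above 0 in Myc_VD, and 12 in MBCs, in every fit run. Calls were less stable. Of 13 mRNAs, 0 were called in Myc_VD in every fit. In MBCs (7 in the report) 4 were called without rRNA, 2 with the median ratio (4.38% of all genes higher), 0 with no filter (1.37%), no trend (3.01%) or the mouse as a replicate block (0.989%; 10 at an unadjusted p under 0.05 in each of these 3), and 0 to 8 without 1 library. Machinery calls in MBCs (1) were 2 without rRNA (5.57% of all genes lower), 3 with the median ratio (6.65%) or no trend (4.47%), 5 with all 3 groups in 1 fit (7.71%), 4 within mice whose ID begins BRAC861.2 (8.02%), 0 with a pseudocount of 0.1 (3.84%), no filter (1.16%) or the replicate block (0.897%), and 0 to 9 without 1 library; in Myc_VD (0) they were 0 to 3. Over all genes, the count in Myc_VD (6) was 1 without rRNA, 15 at a mean of at least 5 TPM, 0 with the median ratio, a pseudocount of 0.1, no filter or all 3 groups (89 to 709 higher and 809 to 2584 lower at an unadjusted p under 0.05) and 0 to 254 without 1 library, the highest without Myc_VD library 5. In MBCs (1219) it was 608 with no filter, 248 with the replicate block and 342 to 2754 without 1 library, the highest without MBC library 4.

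Uncalled machinery genes changed sign. In Myc_VD, without rRNA and with the median ratio, differences were 0.082 and 0.12 for Polrmt, 0.17 and 0.20 for Tfam, 0.16 and 0.19 for Polg, 0.19 and 0.21 for Pnpt1, 0.18 and 0.22 for Supv3l1, and 0.040 and 0.073 for Tbrg4, all below 0 as deposited. Without 1 library the differences in Myc_VD ran from -0.55 to 0.35 for Polrmt, -0.47 to 0.079 for Tfam, -0.29 to 0.11 for Pnpt1, -0.44 to 0.47 for Supv3l1, -0.60 to 0.092 for Tbrg4, -0.24 to 0.38 for Slirp and -0.25 to 0.45 for Elac2. In MBCs they ran from -1.2025 to 0.41 for Tefm, -0.95 to 0.12 for Twnk, -0.39 to 0.53 for Pnpt1 and -0.83 to 1.71 for Elac2. The causes were not tested. Copies added by length and removal of Gm10800, very high in Myc_WT LZ library 4 alone, were chosen after seeing the data. The former gave 8 calls in MBCs (4.18% of all genes higher) and the latter 7 (4.19%). Myc_VD and Myc_WT mice share no number, so no pairing was possible there. TPM hold no depth, so no limit of detection could be given.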
